A study of Mus musculus with 12 samples.

Results

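Afp and Prg4 are a pair of genes for secreted proteins whose RNA was near the lowest measured levels in alveolar type 2 epithelial cells (AEC2) of 2 control genotypes and over 10-fold higher in those of a surfactant protein C (SP-C) mutant. They were picked by symbol, as 2 of the 16080 genes measured, because of that pattern. Their levels in the 3 genotypes therefore chose them and are given below as a description, with no test. Both genes were measured in all 12 libraries, and no library was at 0 for either.

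AEC2 are the lung cells that produce surfactant. RNA was sequenced from such cells of 56-day-old (P56) female mice of the Bl6 strain. Mice of the 3 groups carried SP-C WT, SP-C C185Gneo, which the series calls a hypomorphic control, or SP-C C185G, the mutant, with 4 libraries in each group. All of them, controls included, had received tamoxifen at 200 mg per kg into the peritoneum on 2 days, and cells were taken on day 7. The labels do not name the promoter or cell type through which tamoxifen acts in these mice, and they do not say whether 1 animal or several gave the libraries of a group. P-values therefore cover the spread between these libraries alone, and that spread may be technical. Lungs were dissociated with Dispase, cells that stick to plastic were discarded to remove mesenchymal cells, and CD45+ cells were depleted with beads.

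Libraries held 15659512 to 23444287 reads on the measured genes, and 1 read was worth at most 0.0616 CPM (read counts scaled to a common total, normalized by the authors' factors). Groups follow the genotype field of the labels. The titles of the C185Gneo libraries carry the name C185G and those of the C185G libraries carry another code, so that the titles alone could be read the other way. Sftpc, the gene that was edited, stood at 7467 ± 194 CPM (SD, n = 4) in WT, 895 ± 143 in C185Gneo and 2833 ± 256 in C185G. Its lowest level was thus in the libraries whose genotype is called hypomorphic, and the ranges of the 3 groups did not overlap. All 10 AEC2 markers were measured in every group.

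Alpha-fetoprotein, the product of Afp, is the main plasma protein of the fetus. Yolk sac and fetal liver make it, the gene is shut down after birth, and it comes back in regenerating liver and in liver cancer, which made it a tumour marker. Afp lies in a row of related genes with Alb, the gene of serum albumin, and Afm, the gene of afamin, a carrier of vitamin E. Gc, the vitamin D binding protein and an older relative, lies on the same chromosome. Prg4 encodes lubricin, a long mucin-like glycoprotein that keeps the surfaces of joints sliding. Synovial cells and the surface cells of cartilage make it, and mesothelium, the sheet of cells that covers the lung and lines the chest, is another known source of lubricating proteins. Neither protein is a product that AEC2 are known for.

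In GRCm38, the build called mm10, Afp (ENSMUSG00000054932) lies on chromosome 5 at 90490737 to 90508907 on the plus strand. The RefSeq promoter window of Afp and those of its relatives with a measured level are shown because the relatives moved the opposite way to Afp. Each window runs from 250 bases before to 50 bases after the RefSeq start, 5′ to 3′ on the gene's own strand, at chr5:90490464-90490763 for Afp, chr5:90460620-90460919 for Alb and chr5:89457849-89458148 (minus strand) for Gc. Capitals mark TATAAA, the letters of a TATA box.
Afp: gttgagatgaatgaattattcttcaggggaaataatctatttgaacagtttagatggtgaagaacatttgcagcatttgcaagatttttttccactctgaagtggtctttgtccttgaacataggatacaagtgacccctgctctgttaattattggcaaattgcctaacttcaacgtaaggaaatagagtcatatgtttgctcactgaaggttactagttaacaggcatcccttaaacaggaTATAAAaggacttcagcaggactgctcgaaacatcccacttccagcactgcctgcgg
Alb: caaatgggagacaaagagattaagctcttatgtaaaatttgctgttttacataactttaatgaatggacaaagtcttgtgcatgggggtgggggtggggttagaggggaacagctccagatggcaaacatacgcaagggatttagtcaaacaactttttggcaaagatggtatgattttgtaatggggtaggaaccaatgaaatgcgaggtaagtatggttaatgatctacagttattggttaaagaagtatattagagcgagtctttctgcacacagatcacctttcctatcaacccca
Gc: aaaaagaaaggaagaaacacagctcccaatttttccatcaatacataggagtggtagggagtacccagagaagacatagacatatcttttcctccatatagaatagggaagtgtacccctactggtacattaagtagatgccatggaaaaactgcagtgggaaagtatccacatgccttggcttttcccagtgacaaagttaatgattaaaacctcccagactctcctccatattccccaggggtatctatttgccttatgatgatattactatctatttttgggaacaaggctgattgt
TATAAA, searched on both strands, was present in the windows of Afp and Afm and in 13.6% of the 32851 RefSeq promoter windows of the same length. These letters did not occur in the windows of Alb and Gc. In Afp it began 7 bases before the RefSeq start, and the GENCODE start lies 23 bases further on. These matches describe the letters in the windows and were looked for after the levels were known.

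Prg4 (ENSMUSG00000006014) lies on chromosome 1 at 150449412 to 150466165 on the minus strand. Its transcript Prg4-206 has 3663 coding bases in 12 coding exons, and the largest exon holds 2286 of them. That exon carries the repeat region to which sugar chains are attached. The stretch that follows, coding bases 1489 to 1608 of that transcript, is printed because repeats decide how uniquely a read can be placed within the gene. Capitals mark copies of a 24-base unit that occurs 18 times in frame in the coding sequence.
Prg4: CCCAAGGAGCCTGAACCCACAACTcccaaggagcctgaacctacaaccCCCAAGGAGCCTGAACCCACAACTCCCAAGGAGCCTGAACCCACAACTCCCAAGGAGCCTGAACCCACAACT
Within the coding sequence 32.7% of all stretches of 25 bases (1190 of 3639) occurred more than once, against 0 of 1791 in Afp-201, whose 1815 coding bases are spread over 14 coding exons. The repeats lie within Prg4 itself. How reads that match in several places were counted is not given in the sources used here.

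Afp was near the lowest measured levels in both controls. WT replicates 1 to 4 had 20, 21, 23 and 26 reads, or 1.14, 1.19, 1.28 and 1.60 CPM. The C185Gneo replicates had 32, 28, 24 and 33 reads, or 1.37, 1.56, 1.43 and 1.92 CPM. The 2 control groups overlapped, and all 8 libraries lay within 1.67-fold of each other. In C185G the replicates had 386, 464, 381 and 324 reads, which is 19.9, 21.6, 20.8 and 19.96 CPM. These 4 libraries were nearly level, with the highest 1.09-fold above the lowest, and the lowest of them was 10.4-fold above the highest control library.

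Group means of Afp were 1.30 ± 0.207 CPM (SD, n = 4) in WT, 1.57 ± 0.245 in C185Gneo and 20.6 ± 0.808 in C185G. The C185G mean was 15.8-fold the WT mean and 13.1-fold the C185Gneo mean. On the deposited log2 scale the differences were 3.96 from WT and 3.70 from C185Gneo, while C185Gneo lay 0.26 above WT, within the spread of the control libraries. Ranked by these differences among 16080 genes, Afp took place 19 from WT and place 39 from C185Gneo. Per kb of exon its level was 0.387 CPM in WT and 0.465 in C185Gneo, against 6.10 for the mutant. That moved it from the 6.30th to 11.3rd percentile of the 16017 genes with a known length in the control libraries to the 54.3rd to 56.2nd in the C185G libraries. Afp in the mutant was thus a transcript of middling level, and in the controls it was low but counted.

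Prg4 behaved alike in the controls. Its WT replicates had 30, 41, 43 and 29 reads, or 1.72, 2.32, 2.40 and 1.79 CPM. In C185Gneo there were 47, 33, 36 and 44 reads, or 2.01, 1.83, 2.14 and 2.55 CPM. Again the 2 control groups overlapped, within 1.49-fold over 8 libraries. The C185G replicates had 510, 727, 835 and 916 reads, which is 26.3, 33.9, 45.5 and 56.4 CPM. All 4 were far above the controls, by at least 10.3-fold, but unlike those of Afp they were spread, with the highest 2.15-fold above the lowest. The coefficient of variation over the C185G libraries was 32.7% for Prg4 and 3.93% for Afp.

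Mean levels of Prg4 were 2.05 ± 0.353 CPM (SD, n = 4) in WT, 2.13 ± 0.307 in C185Gneo and 40.5 ± 13.2 in C185G, which is 19.7-fold the WT mean and 18.98-fold the C185Gneo mean. On the log2 scale the differences were 4.24 and 4.18, places 13 and 23 of 16080. The difference between C185Gneo and WT was 0.06, and its sign turned when WT replicate 1 (-0.022), WT replicate 4 (-0.0022) or C185Gneo replicate 4 (-0.031) was left out. Per kb of exon Prg4 stood at 0.480 CPM in WT and 0.499 in C185Gneo, against 9.47 ± 3.09 for the mutant, the 7.83rd to 11.9th percentile in the controls and the 55.3rd to 74.2nd in C185G. In bulk RNA, more cells that transcribe a gene and more RNA per cell cannot be told apart.

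**Figure D1:**
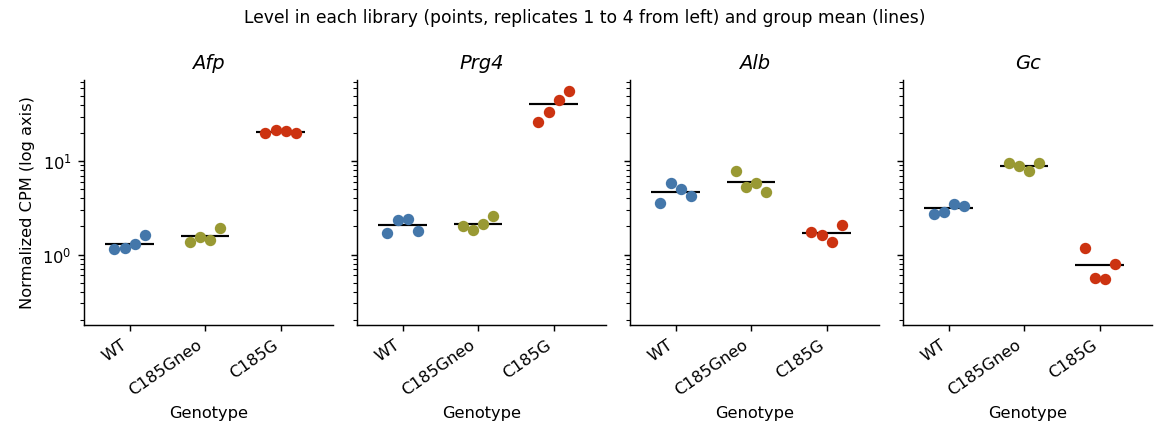
Normalized CPM (log axis) of Afp, Prg4 and the relatives Alb and Gc by genotype, with 1 point per library (replicates 1 to 4 from left) and a line at the group mean. Afp and Prg4 lie between 1.14 and 2.55 CPM in all 8 control libraries and between 19.9 and 56.4 CPM in the 4 C185G libraries, which are level for Afp and spread for Prg4.

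Across all genes, limma called 8852 of 16080 between C185G and WT at a Benjamini-Hochberg adjusted p under 0.05, which is 55% (27.3% higher and 27.8% lower in C185G). Scaling to library totals in place of the authors' scaling moved the split to 59.9% of calls higher, from 49.6%. Between C185G and C185Gneo 57.8% of genes were called, 29.2% higher and 28.7% lower, with 58.1% of calls higher under library totals and 50.5% otherwise. Between C185Gneo and WT 0.541% were called (0.249% higher and 0.292% lower in C185Gneo). Calls of neighbours and markers below are read against these shares. Both C185G contrasts use the same 4 C185G libraries, so they are not independent of each other. Every C185G library lay above all 8 others for 21.5% of genes, Afp and Prg4 among them. Genes named below as above all controls are read against that share. The share of genes with every C185G library below all 8 others was not counted. A lack of overlap in that direction, as for Alb, Gc and Zbtb20, therefore has no share beside it.

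The relatives of Afp did not follow it. Alb, the nearest upstream protein-coding gene, ends 14.134 kb before the start of Afp on the same strand (chromosome 5, 90460897 to 90476602). Its WT libraries had 63, 103, 91 and 68 reads, those of C185Gneo 184, 94, 98 and 81, and those of C185G 34, 35, 25 and 34. All 4 C185G libraries were below every control library, at 1.71 ± 0.304 CPM (SD, n = 4) against 4.67 ± 0.977 in WT and 5.91 ± 1.39 in C185Gneo. In C185G, Alb fell by 1.43 from WT (log2, SE 0.20, limma adjusted p = 3.68e-05) and fell by 1.76 from C185Gneo (adjusted p = 5.11e-06). Per kb of exon, Alb was at 2.00 CPM and Afp at 0.387 CPM in WT, and in C185G at 0.730 and 6.10 CPM, so the order of the 2 neighbours turned over.

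Gc (chromosome 5, 89417522 to 89457898, minus strand) was lowest in C185G too. Its reads were 48, 51, 63 and 54 in WT, 223, 159, 131 and 164 in C185Gneo and 23, 12, 10 and 13 in C185G. The 3 groups did not overlap, and C185Gneo, not WT, was the highest, at 8.92 ± 0.820 CPM (SD, n = 4) against 3.12 ± 0.361 in WT and 0.772 ± 0.299 in C185G. Gc fell by 2.04 in C185G from WT (adjusted p = 3.29e-06) and by 3.55 from C185Gneo (adjusted p = 1.53e-08), and it was 1.51 higher in C185Gneo than in WT (adjusted p = 0.00458). Afm, which starts 10.024 kb beyond the end of Afp, was not analysed here, as it is not among the measured genes.

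Further out, the 4 protein-coding genes on either side of Afp moved little or the other way. Of 8 such genes 5 were measured, and against WT 1 was called higher and 2 lower, beside 27.3% and 27.8% of all genes. Cox18, which inserts a respiratory-chain protein into the inner mitochondrial membrane, was 0.39 higher (log2, SE 0.10, adjusted p = 0.00558) and 0.40 higher than in C185Gneo (adjusted p = 0.00424). Ankrd17, an ankyrin-repeat protein, differed by 0.09 from WT (adjusted p = 0.171) and was 0.16 higher than in C185Gneo (adjusted p = 0.0167). The last call was lost without C185Gneo replicate 2 (adjusted p = 0.0600), and under library totals Ankrd17 was called against WT too, at 0.17 (adjusted p = 0.010). Rassf6, a member of the Ras association domain family, differed by 0.03 and 0.04 (adjusted p = 0.851 and 0.774), with signs that turned when single libraries were left out.

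Cxcl5, a chemokine that draws neutrophils, is the last of these genes downstream, with a gap of 250.452 kb from Afp. Its level was 26.3 ± 10.3 CPM (SD, n = 4) in WT, 8.05 ± 2.78 in C185Gneo and 9.61 ± 1.11 in C185G. It fell by 1.37 in C185G from WT (adjusted p = 0.00154), whereas the difference from C185Gneo was 0.31 (adjusted p = 0.370). Its fall in C185Gneo from WT, by 1.68 (adjusted p = 0.0263), was lost without WT replicate 1 or 3 or C185Gneo replicate 1, 2 or 3 (adjusted p = 0.0568 to 0.0946) and in the 8 libraries alone (adjusted p = 0.105).

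Of the 8 protein-coding neighbours of Prg4, 4 were measured. In C185G 2 were called higher and none lower against each control. Beside them, 27.3% of all genes were called higher and 27.8% lower against WT, and 29.2% and 28.7% against C185Gneo. Hmcn1, which encodes a large extracellular matrix protein, lies on the same strand, with a gap of 96.358 kb between its 3′ end and the start of Prg4. It was at 18.9 ± 2.74 CPM (SD, n = 4) in WT, 13.9 ± 6.24 in C185Gneo and 32.7 ± 3.27 in C185G, and all 4 C185G libraries were above the 8 others. The difference was 1.35 from C185Gneo (log2, SE 0.29, adjusted p = 0.00192) and 0.80 from WT (adjusted p = 0.0356). The call against WT was lost without any one of WT replicates 1, 3 and 4 and C185G replicates 2, 3 and 4 (0.71 to 0.82, adjusted p = 0.0563 to 0.0883).

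Odr4, named for a worm gene that brings receptors to the membrane, was 0.19 higher in C185G than in each control (adjusted p = 0.0182 and 0.0175). The call was lost without C185G replicate 3 (adjusted p = 0.0596 against WT and 0.0575 against C185Gneo), without WT replicate 3 (adjusted p = 0.0504) and without C185Gneo replicate 3 (adjusted p = 0.0585). Ptgs2, the inducible cyclooxygenase, differed by 0.07 from WT (adjusted p = 0.722) and by 0.30 from C185Gneo (adjusted p = 0.116). The latter difference passed without C185Gneo replicate 4 (0.48, adjusted p = 0.000617) and with quantile normalization (adjusted p = 0.0490).

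Tpr, which encodes the basket protein of the nuclear pore, is the closest neighbour, since its 3′ end runs into that of Prg4 on the other strand. The genes overlap by 524 bases, of which 204 are exonic in both (chromosome 1, 150449732 to 150449935). Those are 4.77% of the 4280 exonic bases of Prg4, none of them coding in Prg4. Tpr was at 200.6 ± 6.01 CPM (SD, n = 4) in WT, 195 ± 7.03 in C185Gneo and 209 ± 1.22 in C185G. At its mean level per kb, 204 bases of Tpr would carry 3.90, 3.79 and 4.06 CPM in the 3 genotypes. That is more than the whole level of Prg4 in the controls and a small part of it in C185G. Whether the counting used strand is not given in the sources used here, and how many of the reads given to Prg4 came from Tpr was not tested. Tpr itself differed by 0.06 from WT (adjusted p = 0.269) and 0.10 from C185Gneo (adjusted p = 0.0645). With library totals both differences passed (0.14, adjusted p = 0.0106, and 0.16, adjusted p = 0.00377), and with quantile normalization that from C185Gneo did (adjusted p = 0.0390).

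**Figure D2:**
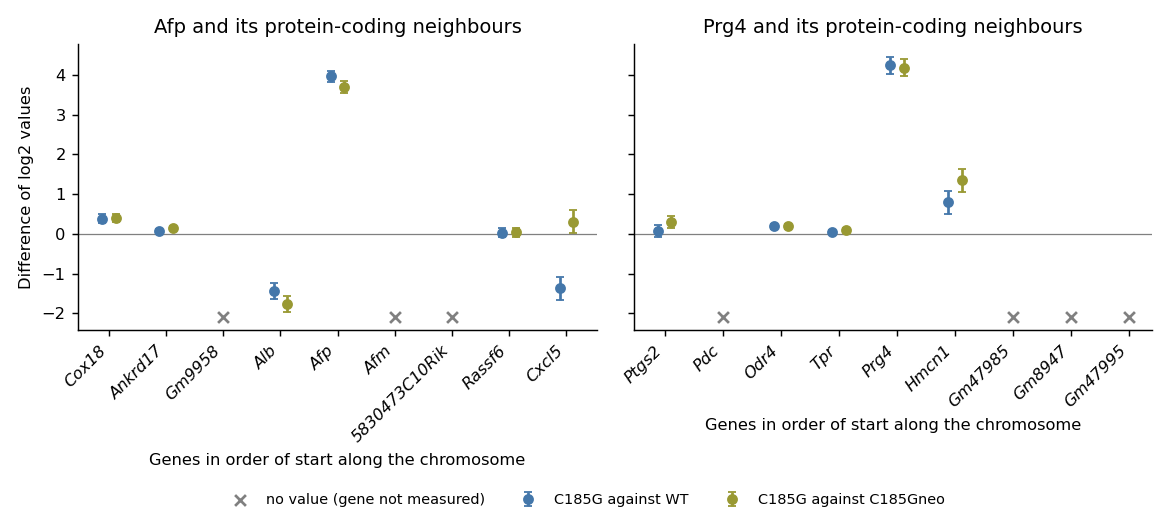
Differences of log2 values (C185G minus each control, bars are limma standard errors) for Afp, Prg4 and the 4 protein-coding genes on either side of each, in chromosome order. Grey crosses at the foot mark genes with no value. Afp stands at 3.96 and 3.70 and Prg4 at 4.24 and 4.18, while measured neighbours lie between -1.76 (Alb) and 1.35 (Hmcn1).

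Mesothelial cells cover the lung and can enter a lung digest, and their markers were present in all groups. Of 13 markers 11 were measured, without a library at 0, and Calb2 and Muc16 were not among the measured genes. Against WT only Krt19 was called higher in C185G, 0.32 on the log2 scale (adjusted p = 0.000417), beside 27.3% of all genes. Krt19 is a keratin of many epithelia as well. The median difference of the 11 was 0.41, beside 0.00 for all genes. Against C185Gneo 5 of 11 were called higher, beside 29.2% of all genes, and their median difference was 1.07. None was called between C185Gneo and WT.

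Msln, the gene of mesothelin and the usual marker of these cells, had 2489, 2807, 2894 and 3152 reads in WT, 670, 1777, 2644 and 4039 in C185Gneo and 5503, 8079, 6570 and 5376 in C185G. C185G libraries were above all others, while those of C185Gneo ranged more widely than any other group. The means were 164 ± 21.7 CPM (SD, n = 4), 130 ± 87.4 and 337 ± 40.4, so that C185G had 2.05-fold the WT level and 2.60-fold the C185Gneo level. The log2 difference of Msln was 1.73 from C185Gneo (SE 0.51, adjusted p = 0.0140) and 1.04 from WT (adjusted p = 0.108).

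Upk1b, a uroplakin of surface membranes, Wt1, a transcription factor of mesothelium, and Bnc1, a zinc finger protein, shared this pattern. Each was above all controls in every C185G library and was called against C185Gneo, at 1.60, 1.72 and 1.58 (adjusted p = 0.0160, 0.0214 and 0.0246), and not against WT, at 0.93, 0.89 and 0.93 (adjusted p = 0.128, 0.196 and 0.164). For these 3 and Msln the call depended on the spread of C185Gneo, which the fit shares with all groups. In the 8 libraries of C185G and WT alone all 4 were called, and Rspo1 too, so that 6 of 11 markers were higher; without C185Gneo replicate 1 there were 5. Against C185Gneo, 3 of 11 were called in the 8 libraries compared and 8 without C185Gneo replicate 4. Without C185G replicate 2 or 3 the call of Bnc1 against C185Gneo was lost (adjusted p = 0.0543 and 0.0583).

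Other markers of the same cells were not called in either contrast of the 12-library fit. Upk3b, another uroplakin, differed by -0.10 from WT and 0.55 from C185Gneo, and Lrrn4, a leucine-rich repeat protein, by -0.14 and 0.67. Gpm6a, a membrane glycoprotein, differed by 0.25 and 1.07, and Nkain4 by 0.43 and 0.93. Rspo1, a secreted Wnt agonist, differed by 0.41 and 1.11, and Aldh1a2, which makes retinoic acid, by 0.18 and 0.98. Without C185Gneo replicate 4, Gpm6a (adjusted p = 0.0248), Rspo1 (adjusted p = 0.0116) and Aldh1a2 (adjusted p = 0.0310) were called against C185Gneo. Rspo1 was also called without C185Gneo replicate 1 (0.57, adjusted p = 0.0258), under library totals (adjusted p = 0.0412), with a minimum mean of 5 CPM (adjusted p = 0.0440) and with voom weights (adjusted p = 0.0329).

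Set beside the 10 markers other than Krt19, Prg4 had a larger difference and another order of libraries. Krt19 was left out of this sum after its values were seen, because its level was many times that of the others. The summed level was 497, 575, 578 and 686 CPM in WT, 97.0, 399, 494 and 815 in C185Gneo and 745, 972, 878 and 711 in C185G. C185Gneo replicate 4 was above 2 of the C185G libraries, and C185Gneo replicate 1 was far below every other library. The mean of C185G was 1.42-fold that of WT and 1.83-fold that of C185Gneo, against 19.7-fold and 18.98-fold for Prg4. Over the 8 controls the sum ranged 8.40-fold, while Prg4 ranged 1.49-fold and Afp 1.67-fold. Within C185G, replicate 4 had the lowest sum and the highest Prg4.

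Per 1000 CPM of this sum, Prg4 was at 3.46, 4.04, 4.14 and 2.61 CPM in WT, 20.7, 4.60, 4.33 and 3.14 in C185Gneo and 35.3, 34.8, 51.8 and 79.3 in C185G. Every C185G library stayed above all controls on this scale, with C185Gneo replicate 1, the library of least mesothelial RNA, the nearest. Afp per 1000 CPM of the sum was 22.2 to 28.1 CPM in C185G, above 2.07 to 2.34 CPM in WT and 2.35 to 14.1 CPM in C185Gneo. The part of mesothelial cells in the level of Prg4 was not tested beyond these values.

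**Figure D3:**
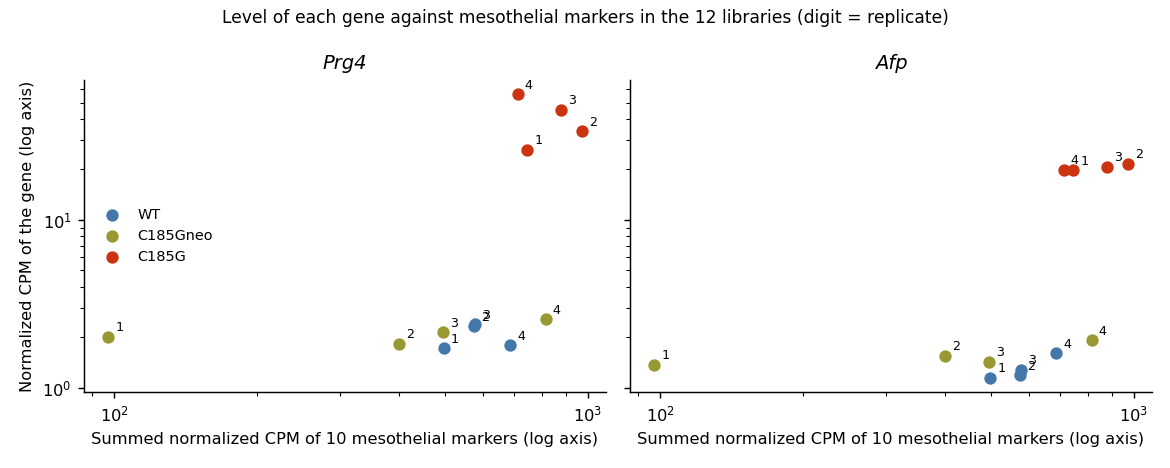
Normalized CPM of Afp and Prg4 (log axis) against the summed normalized CPM of 10 mesothelial markers (log axis), with 1 point per library and its replicate number. The controls spread from 97.0 to 815 CPM of markers at nearly level Afp and Prg4, and the C185G libraries lie from 711 to 972 CPM of markers at over 10-fold higher Afp and Prg4.

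Markers of other cells that a lung digest can hold moved in several directions. Of 14 mesenchymal markers, all measured, 2 were called higher and 2 lower against WT, beside 27.3% and 27.8% of all genes. Against C185Gneo 9 of these markers were higher and none lower, beside 29.2% and 28.7%. Their summed level was 523 to 838 CPM in WT, 200 to 580 in C185Gneo and 643 to 863 in C185G. Col1a2, a chain of fibrillar collagen, was 1.30 higher than in C185Gneo (adjusted p = 0.00293) and differed by 0.58 from WT (adjusted p = 0.113). None of the 4 calls against WT (Dcn, Pi16, Cspg4 and Myh11) held with every library left out in turn, and the highest adjusted p-values of those refits were 0.112, 0.0927, 0.0716 and 0.0911. Dcn lost its call without any library other than C185Gneo replicates 1 and 4, and Pi16 without WT or C185G replicate 1, 2 or 4. Cspg4 lost it without WT replicate 2 or C185G replicate 3, and Myh11 without WT replicate 2 or any C185G library.

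Endothelial markers were lower in C185G, 6 of 8 against WT and 7 of 8 against C185Gneo, beside 27.8% and 28.7% of all genes. Their sum in C185G was 116 to 138 CPM, below the 158 to 248 CPM of WT and the 144 to 230 CPM of C185Gneo. Of 13 myeloid markers 6 were measured, and 1 was called higher in C185G against each control, beside 27.3% and 29.2% of all genes. That was Cd68, a lysosomal protein of macrophages, 0.94 higher than in WT (adjusted p = 6e-06) and 0.71 higher than in C185Gneo (adjusted p = 6.62e-05). The sum of the myeloid markers was 203 to 248, 190 to 209 and 194 to 226 CPM in WT, C185Gneo and C185G. Most of that sum was Gata6 alone, with means of 151, 139 and 140 CPM in the same order. The sum therefore says little about the other myeloid markers. None of the measured mesenchymal, endothelial or myeloid markers was at 0 in any library. AEC2 markers were lower in C185G, 10 of 10 against WT, and 9 of 10 against C185Gneo, with Sftpc higher. Their sum in C185G was 14113 to 16896 CPM, below 33548 to 39362 CPM in WT and 30191 to 34242 CPM in C185Gneo. The part of any of these cells in the levels of Afp and Prg4 was not tested.

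Most of the measured hepatocyte genes listed here did not rise with Afp. Of 23 hepatocyte genes 12 were measured. Against WT 8 were lower and 1 higher in C185G, beside 27.8% and 27.3% of all genes, with a median difference of -0.71. Apoa1, the protein of high-density lipoprotein, fell by 2.32 (log2, SE 0.20, adjusted p = 5.37e-07), from 8.23 ± 0.452 CPM (SD, n = 4) to 1.71 ± 0.690. Itih1, an inter-alpha-trypsin inhibitor chain, fell by 1.91 (adjusted p = 2.05e-07), and Trf, transferrin, by 1.09 (adjusted p = 2.43e-06). Serpinc1, antithrombin, was the exception, 0.95 higher (adjusted p = 0.00612) at a low level of 1.28 ± 0.247 CPM against 0.653 ± 0.141 in WT. Against C185Gneo 10 were lower and 2 higher (Serpinc1 and Hpx), beside 28.7% and 29.2% of all genes, with a median of -1.24. Ttr, Ahsg and Apoa2, major products of hepatocytes, were not among the measured genes. Outside this list, the liver genes Gckr and Serpina3m had higher levels in C185G than in both controls, as given below.

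Other genes that mark fetal liver and liver tumours together with Afp were mixed. Of 13 such oncofetal genes 7 were measured, and 1 was higher and 4 lower against WT, beside 27.3% and 27.8% of all genes. Against C185Gneo 2 were higher and 3 lower, beside 29.2% and 28.7%. Peg10, an imprinted gene, fell by 0.78 against WT (adjusted p = 5.42e-05), Igf2, the fetal growth factor, by 0.55 (adjusted p = 0.00629), and Igf2bp3, an RNA-binding protein of fetal tissue, by 0.98 (adjusted p = 0.00847). Ly6d, a surface protein, was 0.87 higher (adjusted p = 0.00335). Gpc3, a glypican used beside Afp as a liver tumour marker, differed by 0.54 from WT (adjusted p = 0.299) and was 1.19 higher than in C185Gneo (adjusted p = 0.0329). The C185Gneo libraries of Gpc3 ranged widely, from 51.4 to 298 CPM, and overlapped those of C185G (289 to 391 CPM). In C185Gneo replicates 1 to 4 Gpc3 had 1201, 2818, 3136 and 5140 reads. That is the order of the summed mesothelial markers without Krt19 in these libraries (97.0, 399, 494 and 815 CPM). The part of mesothelial cells in the level of Gpc3 was not tested. The call of Gpc3 was not looked at under other settings. H19 and Dlk1 were not among the measured genes.

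The factors known to bind the promoter and enhancers of Afp were mostly lower in C185G. Of 16 listed 12 were measured. Against WT 10 were lower and 1 higher, beside 27.8% and 27.3% of all genes, with a median difference of -0.48. Against C185Gneo 8 were lower and 2 higher, beside 28.7% and 29.2%, with a median of -0.42. The list holds repressors and activators. Zbtb20, the zinc finger protein that shuts off Afp in the liver after birth, had 179 ± 13.6 CPM (SD, n = 4) in WT, 182 ± 6.76 in C185Gneo and 123 ± 7.74 in C185G, with no overlap. It fell by 0.55 against WT (SE 0.06, adjusted p = 6.56e-06) and by 0.57 against C185Gneo (adjusted p = 4.07e-06). Zfhx3, also known as a repressor of Afp, fell by 0.66 (adjusted p = 4.21e-06) and 0.61 (adjusted p = 7.41e-06). Zhx2, whose variant in some mouse strains lets Afp persist after birth, fell by 0.23 against WT (adjusted p = 0.0438) and differed by -0.19 from C185Gneo (adjusted p = 0.0939), with overlapping libraries.

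Several factors that act as activators in liver were lower too, but Foxa2 was not. Cebpa, a leucine zipper factor, fell by 1.10 against WT (adjusted p = 7.73e-07) and 1.11 against C185Gneo (adjusted p = 5.94e-07), from 564 ± 46.1 CPM (SD, n = 4) in WT to 264 ± 22.5. Foxa1, a forkhead factor, fell by 0.23 (adjusted p = 0.000556) and 0.24 (adjusted p = 0.000407). Nfia, a nuclear factor I protein whose sites lie in the Afp promoter, fell by 0.91 (adjusted p = 6.38e-07). Foxa2 differed by 0.19 from WT (adjusted p = 0.0929) and was 0.38 higher than in C185Gneo (adjusted p = 0.00248). Trp53, the gene of p53, known to repress Afp, was 0.56 higher than in WT (adjusted p = 3.56e-05) and 0.67 higher than in C185Gneo (adjusted p = 6.6e-06). Foxa3, Nr5a2 and Nkx2-8 were not among the measured genes.

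**Figure D4:**
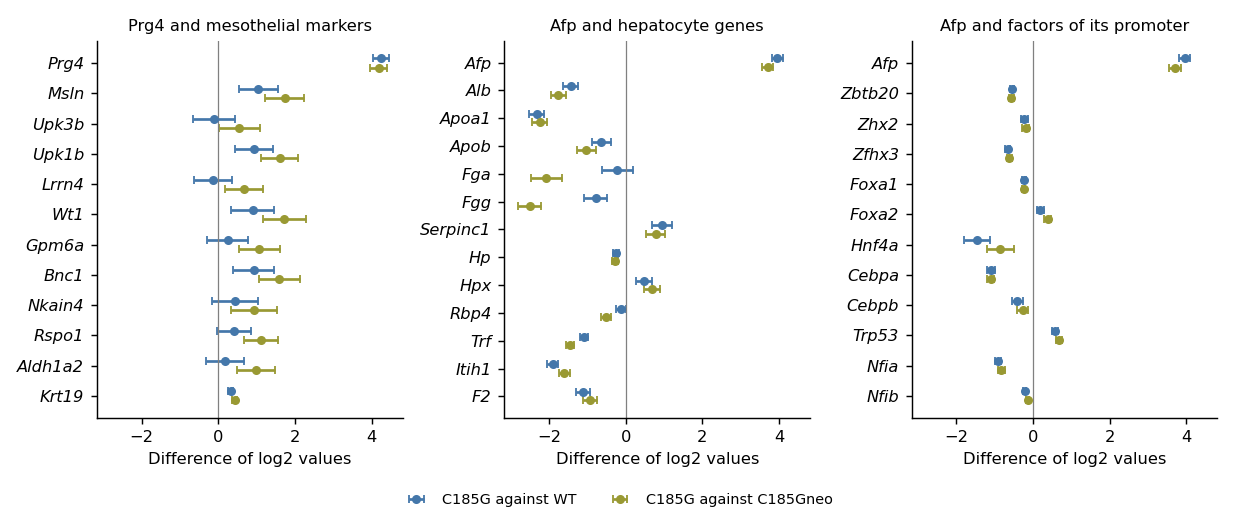
Differences of log2 values (C185G minus WT and minus C185Gneo, bars are limma standard errors) for Prg4 beside 11 mesothelial markers, and for Afp beside 12 hepatocyte genes and 11 factors of its promoter and enhancers. Afp and Prg4 lie between 3.70 and 4.24, and no other gene drawn goes beyond 1.73 (Msln) upward.

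Genes known to regulate Prg4 were measured in full. Of 17 such genes 3 were higher and 10 lower in C185G against WT, with a median difference of -0.28, beside 27.3% and 27.8% of all genes. Against C185Gneo 3 were higher and 6 lower, beside 29.2% and 28.7%. TGF-beta signalling is the best known inducer of Prg4 in cartilage. Of the Tgfb, Tgfbr and Smad genes listed, only Tgfbr2 was called higher, and several were lower. Tgfbr2, the type 2 receptor, was 0.36 higher against WT (SE 0.06, adjusted p = 0.000129) and 0.45 against C185Gneo (adjusted p = 1.53e-05), at 314 ± 21.2 CPM (SD, n = 4) in C185G and 245 ± 2.88 in WT. Smad7, the inhibitor of the pathway, fell by 0.41 (adjusted p = 3.55e-05) and 0.42 (adjusted p = 2.86e-05). Tgfbr1, the type 1 receptor, fell by 0.28 against WT (adjusted p = 0.00146) and differed by -0.15 from C185Gneo (adjusted p = 0.0573). Tgfb1, Tgfb3 and Smad3 fell by 0.39, 0.35 and 0.30 against WT (adjusted p = 0.00688, 0.00827 and 0.00482). Against C185Gneo, Smad3 fell by 0.22 (adjusted p = 0.0273), and Tgfb1 and Tgfb3 were not called (adjusted p = 0.179 and 0.70). Tgfb2 and Smad2 were not called in either contrast. Foxo3, a forkhead factor of the list, fell by 0.74 (adjusted p = 5.28e-06) and 0.77 (adjusted p = 3.56e-06). Foxo1, its relative in the list, fell by 0.26 (adjusted p = 0.00352) and 0.32 (adjusted p = 0.000669). Creb5, a factor of the superficial zone of joints, differed by -0.37 from WT (adjusted p = 0.210) and 0.23 from C185Gneo (adjusted p = 0.431).

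Lubricin binds CD44, the hyaluronan receptor, and the Toll-like receptors TLR2 and TLR4. Cd44 was at 287 ± 22.7 CPM (SD, n = 4) in WT, 254 ± 22.2 in C185Gneo and 365 ± 3.75 in C185G, without overlap between C185G and the controls. Its difference was 0.35 from WT (SE 0.07, adjusted p = 0.00057) and 0.53 from C185Gneo (adjusted p = 1.61e-05). Tlr2 was 0.73 higher than in WT (adjusted p = 0.00292) and 0.78 higher than in C185Gneo (adjusted p = 0.00181). Tlr4 fell by 0.51 from C185Gneo (adjusted p = 0.00184) and by 0.32 from WT (adjusted p = 0.0329). The last call was lost under library totals (adjusted p = 0.101) and without WT replicate 1 or 2 or C185G replicate 1, 3 or 4 (adjusted p = 0.0607 to 0.112).

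Genes that synovial cells and surface cartilage make beside Prg4 did not move as a group. Of 14 listed 11 were measured. Against WT 1 was higher and 2 lower, beside 27.3% and 27.8% of all genes, with a median difference of 0.08. Against C185Gneo 5 were higher and 1 lower, beside 29.2% and 28.7%, with a median of 0.23. Vcam1, an adhesion protein of the synovial lining, was 1.19 higher than in WT (SE 0.23, adjusted p = 0.00106) and 1.51 higher than in C185Gneo (adjusted p = 0.000179), at 60.0 ± 11.6 CPM (SD, n = 4) against 26.3 ± 5.84 in WT. Has1, a hyaluronan synthase, was 1.61 higher than in C185Gneo (adjusted p = 0.00220) and differed by 0.83 from WT (adjusted p = 0.0621). That last difference passed without C185Gneo replicate 1 (adjusted p = 0.00486), C185Gneo replicate 4 (adjusted p = 0.0394) or WT replicate 3 (adjusted p = 0.0431), in the 8 libraries alone (adjusted p = 0.00301), under library totals (0.91, adjusted p = 0.0402) and with voom weights (0.84, adjusted p = 0.0334). Gdf5, the growth factor that marks forming joints, fell by 2.18 (adjusted p = 8.66e-05) from 1.02 ± 0.240 CPM in WT to 0.219 ± 0.111. Cd55, a complement regulator of the lining, fell by 0.30 against WT (adjusted p = 0.0155), a call that was lost without WT replicate 4 (adjusted p = 0.0506), C185G replicate 4 (adjusted p = 0.0525) or under library totals (adjusted p = 0.0744).

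The genes whose values over the 12 libraries were most like those of each member were found by the root-mean-square difference of log2 values, after each gene was centred on its own mean. The search covered 13295 protein-coding genes with a mean of at least 1 CPM. Predicted genes, with names that start with Gm and digits or end in Rik, were left out. Since all such genes share the step between the genotypes, this likeness describes the libraries and was not tested. For Afp the nearest were Ptprn (0.228), a protein of secretory granules in endocrine cells, Vipr2 (0.272), a receptor for vasoactive intestinal peptide, and Uchl1 (0.273), a deubiquitinase of neurons. Trim6 (0.311), a ubiquitin ligase, and Gsta1 (0.320), a glutathione transferase, followed. Prg4 took place 10, at 0.371.

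For Prg4 the nearest were Uchl1 (0.282), Gsta1 (0.323), Afp itself (0.371), Vipr2 (0.388) and Ndnf (0.480), a secreted neurotrophic factor. Their levels show how near they come to the members. Ptprn was at 12.99 ± 1.69 CPM (SD, n = 4) in WT, 12.4 ± 2.19 in C185Gneo and 174 ± 40.3 in C185G. Uchl1 was at 5.84 ± 0.445, 5.66 ± 0.304 and 104 ± 7.26 CPM in the same order. Among these genes of like pattern, Vipr2, at 2.15 ± 0.517, 2.00 ± 0.170 and 26.2 ± 4.73 CPM, came closest in level to Afp and Prg4. Gsta1 has near-identical relatives, so its 5.84, 5.77 and 87.8 CPM are uncertain.

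**Figure D5:**
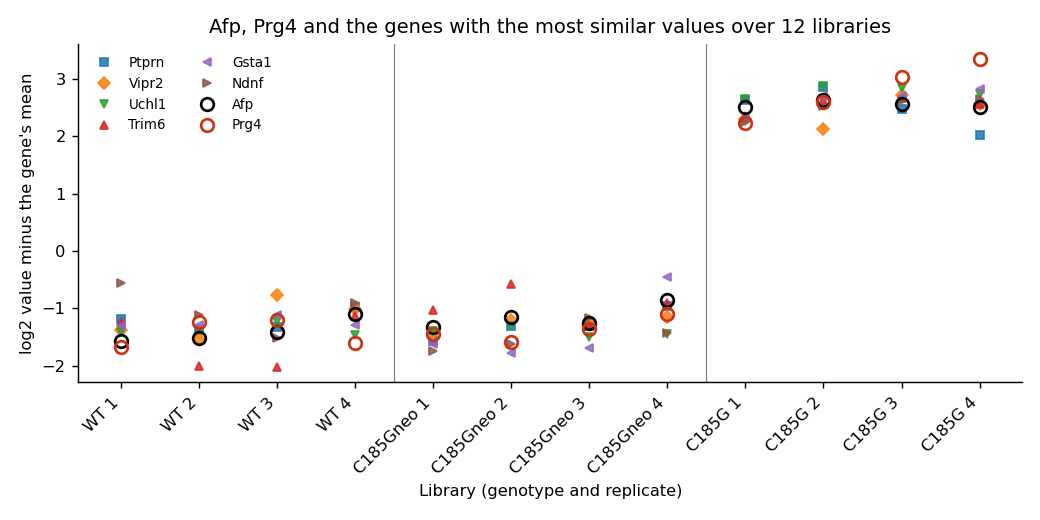
Log2 values of Afp, Prg4 (open circles) and the genes most like them (filled marks), each centred on its own mean, over the 12 libraries in the order WT, C185Gneo and C185G. All genes drawn sit low in the 8 control libraries and high in the 4 C185G libraries, and Prg4 differs more than Afp among the latter.

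Genes with a difference of at least 3 on the log2 scale in both contrasts and no overlap with the controls numbered 42 of 16080. This rule uses the same values that chose the members, so the list only places them. Ordered by the smaller of the 2 differences, Prg4 took place 9 and Afp place 19. Ahead of Prg4 stood genes with lower control levels, among them Mt3, a metallothionein of brain, at 0.188 CPM in WT and 0.201 in C185Gneo, against 26.0 for the mutant, and Gckr, the inhibitor of glucokinase in liver, at 0.553, 0.361 and 11.7 CPM. Serpina3m, a liver protease inhibitor of a family with close copies, was at 0.0987, 0.0637 and 3.47 CPM, and Car6, a secreted carbonic anhydrase of saliva, at 0.0154, 0.0401 and 1.67 CPM. Crct1, from the cluster of skin barrier genes, was at 0.0436, 0.0139 and 1.77 CPM. Sprr2g, H2-T-ps and Ighv3-1 belong to families of near-identical copies and Snhg7os is an antisense transcript, so their values are uncertain. Below about 1 CPM these control levels rest on a few reads.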

How the data were processed

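RNA of 12 AEC2 isolates was analysed. Per the submitters' processing notes, STAR, limma and mm10 were used, without versions; which counter, annotation and strand setting were used is not given in the sources used here. The deposited values are log2 of a read count plus 0.5 times 1 factor per library, as the authors' values show: all of them (100%) gave whole counts within 1e-06. Normalized CPM are those counts on the authors' scaling, over the mean scaled total (libraries differ by up to 1.084-fold). Genes with few reads are missing; the lowest measured one had 83 over 12 libraries. Names and positions came from GENCODE M21 (16017 of 16080 identifiers matched) and promoters from RefSeq (GRCm38.p6). The deposited log2 values entered limma 3.58.1 (R 4.3.3; lmFit, eBayes with trend and robust), 1 coefficient per genotype, all 12 libraries, Benjamini-Hochberg over all genes; a call is an adjusted p under 0.05. The code was tested on simulated data. Some genes of the lists are counted and not reported here by name.

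Afp and Prg4 and all gene lists were chosen with earlier results of these data known. Named were the members, their measured relatives, 4 protein-coding neighbours on each side, every measured mesothelial marker, up to 4 members of each other list by p plus exceptions, the 5 genes most like each member, and up to 10 of like size. A few genes beyond the 4 (Gpc3, Creb5, Tgfbr1, Foxa1, Foxa2, Zhx2 and Col1a2 among them) were added for their known roles after their values were seen. Alternatives were library totals, quantile normalization, no trend, a minimum mean of 5 CPM, the 8 libraries compared, replicate blocks, voom weights, an added count of 2, and each library left out. Precision at low levels is limited by depth, since Afp and Prg4 rest on 20 to 47 reads per control library.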

Additional observations from a re-analysis of the deposited data

Results flagged for a closer look

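A library that stands apart was looked for in 153 groups of 4 libraries. These were for Afp, Prg4, their measured neighbours, Gc, the mesothelial markers and up to 4 genes of most other lists. Sums of the mesenchymal markers and of the mesothelial markers without Krt19 were included, and the other genes of the lists were not. The measure was the gap to the nearest other library over the range of the group, and 8 groups had a library above Dixon's 95% critical value. Chance alone gives about 1 in 20. No group of Afp or Prg4 had one. Myh11, a smooth muscle myosin, was at 186.8 CPM in WT replicate 2, with 94.12 to 103.8 CPM in the other WT libraries. Cebpa was at 494.7 CPM in WT replicate 4, below the 582.6 to 592 CPM of the others. Zfhx3 was at 144.7 CPM in WT replicate 2 (others 135.2 to 136.7) and at 101.2 CPM in C185G replicate 1 (others 82.28 to 84.64). Tgfbr1 was at 75.14 CPM in C185Gneo replicate 1, above 70.41 to 71.11 in the others. Tlr2 was at 53.87 CPM in C185Gneo replicate 4, above 31.17 to 32.33, and Gdf5 in the same library at 1.045 CPM, above 0.7224 to 0.7733. Vcam1 was at 42.57 CPM in C185G replicate 3, below the 64.86 to 67.16 CPM of the other mutant libraries.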

How the results depend on the processing

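The differences of Afp and Prg4 from both controls kept their sign and size: with each library left out they were 3.902 to 4.06 and 3.64 to 3.80 for Afp and 4.06 to 4.43 and 4.001 to 4.37 for Prg4 (log2, from WT and C185Gneo), and under the 8 other settings 3.87 to 4.04, 3.64 to 3.77, 4.18 to 4.32 and 4.13 to 4.24. That of Prg4 between C185Gneo and WT ran from -0.03 to 0.14, and its sign turned without WT replicate 1 (-0.022), WT replicate 4 (-0.0022) and C185Gneo replicate 4 (-0.031). With single libraries left out, 7932 to 9277 genes were called between C185G and WT, 8414 to 9641 between C185G and C185Gneo and 40 to 112 between C185Gneo and WT. The last count was 87 in the fit reported and 54 without the mean-variance trend. Mesothelial markers called higher numbered 1 to 5 against WT and 4 to 8 against C185Gneo with libraries left out, and 6 and 3 with only the 8 libraries compared. Rassf6 turned its sign with single libraries left out (against WT -0.033, -0.029 and -0.050 in a range of -0.050 to 0.10, and against C185Gneo -0.0017 and -0.037 in a range up to 0.092), as did Upk3b (against WT 0.00073 and 0.077 in a range from -0.24, and against C185Gneo -0.086 in a range up to 0.97) and Lrrn4 (against WT 0.0024 in a range from -0.22). Of 71 results on single genes 40 kept direction and side of the threshold under all settings run. For the other 31 the cause was not tested. The 71 cover neighbours, Gc and mesothelial markers against both controls, and up to 4 genes of most other lists against WT alone. They also hold Gc, Cxcl5 and Alb between C185Gneo and WT. Other calls, such as those of Gpc3, Col1a2, Has1 and Vcam1 against C185Gneo and Zhx2 against WT, were not looked at under other settings.

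The replicate numbers of the titles showed no clear pairing of the samples. Deviations of same-numbered libraries correlated from -0.126 to 0.182 (median -0.013, 12 pairs), and 4 of 12 libraries were closest to one of their own number. With so few libraries these values cannot decide whether the samples were paired. With the number as a block 8670, 9112 and 63 genes were called in the 3 contrasts, the calls of Cxcl5 (C185Gneo against WT, adjusted p = 0.0651) and Pi16 (C185G against WT, adjusted p = 0.0530) were lost, and that of Rspo1 (C185G against C185Gneo, adjusted p = 0.0352) was gained.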
